A study of Mus musculus with 2 samples.

Results

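The 9 genes described here form the inflammasome of the gut epithelium with its main substrates: Nlrp6, Nlrc4, Naip1, Naip5, Naip6, Pycard, Casp1, Il18 and Gsdmd. They were chosen by name, 9 of the 27998 genes in the count matrices, and were read in the 10 cell types that the authors annotated in jejunal crypts. The cells came from 2 males aged 12 months with a whole-body miR-375 knockout (375KO), with the strain labelled C57BL6/2J and the animals described as B6 albino in the protocol. The deletion was made with CRISPR/Cas9 in embryos of an FVB by B6 cross and backcrossed to B6 albino. Each mouse gave 1 single-cell library made with 10x Genomics reagents, here replicate 1 and replicate 2, and both carry the same genotype. No agent was given, and wild-type libraries were not used here, so no value below measures an effect of losing miR-375.

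An inflammasome is a protein scaffold that forms in the cytosol when a sensor detects a microbe or damage. Naip proteins bind bacterial flagellin or parts of the secretion needle and then join Nlrc4, while Nlrp6 is a sensor known mainly from the intestinal epithelium. The adaptor ASC, product of Pycard, links sensors to the protease caspase-1, product of Casp1. Caspase-1 cuts the cytokine IL-18, which the gut epithelium stores as a precursor, and gasdermin D, product of Gsdmd, which then forms pores in the cell membrane.

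The authors kept 2082 cells with 44017234 UMIs in replicate 1 and 1193 cells with 22163354 UMIs in replicate 2, where a UMI (unique molecular identifier) stands for 1 captured RNA molecule. The median cell held 16475 and 15232 UMIs, of which 10.2% and 5.55% were mitochondrial. The libraries shared 0 cell barcodes. With 1 library per mouse, mouse and library preparation cannot be told apart. Epithelial types held 3207 cells and the annotated intraepithelial lymphocytes (IEL) 68. Of 50 marker genes, 46 were highest in their own type in both libraries, the exceptions being Ascl2 for stem cells and Pcna, Mcm4 and Tubb5 for transit-amplifying (TA) cells. The IEL label was mixed. Of the authors' clusters in it, cluster 11 (28 and 5 cells) carried the 8 lymphocyte markers at 29563 and 25614 counts per 1000000 UMIs (CPM), summed. Cluster 14 (22 and 13 cells) carried them at 918 and 3009 CPM, with 10 macrophage and dendritic cell markers at 5228 CPM in replicate 1 and 5 B and plasma cell markers at 8787 CPM in replicate 2. In Paneth cells 10 genes took 82.6% and 81.9% of all UMIs, so that the CPM of every other gene is low there.

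The genes lie on chromosomes 7, 9, 13, 15 and 17 of mm10. Nlrp6 (chr7:140920902-140929192, + strand) and Pycard (chr7:127989708-127993867, - strand) are on chromosome 7, and Casp1 (chr9:5298517-5307265, + strand) and Il18 (chr9:50554827-50581840, + strand) on chromosome 9. The Naip genes are neighbours on the minus strand of chromosome 13, with Naip5 at chr13:100211739-100246323, Naip6 at chr13:100281121-100317674 and Naip1 at chr13:100407764-100452869. Nlrc4 is at chr17:74425438-74459142 on the minus strand and Gsdmd at chr15:75862327-75867408 on the plus strand. Reads of this assay come from the 3′ ends of transcripts. Among the last 300 bases of the annotated transcripts, 0% of stretches of 40 bases were shared with another gene in every transcript of 7 of the 9 genes, Naip6 included. Naip5 shared 16.1% of its stretches with genes outside the family, and a short Naip1 transcript of 1968 bases shared 65.5% with other Naip genes, so levels of these genes carry some uncertainty.

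Promoter sequences of 8 of the 9 genes were found in RefSeq (GRCm38.p6), each from 250 bases before to 50 after a RefSeq transcript start, which for Naip5 and Nlrc4 was not the start of the gene. Those of Il18 and Naip1 are shown because enterocytes were highest for both genes in both libraries, that of Naip5 as the paralogue of Naip1 with another pattern, and that of Nlrp6 because it fell in goblet cells. Capitals mark matches to the motifs searched on both strands. Il18 lies at chr9:50554450-50554749 (+ strand), Naip1 at chr13:100452815-100453114 (- strand), Naip5 at chr13:100247287-100247586 (- strand) and Nlrp6 at chr7:140920652-140920951 (+ strand).
Il18: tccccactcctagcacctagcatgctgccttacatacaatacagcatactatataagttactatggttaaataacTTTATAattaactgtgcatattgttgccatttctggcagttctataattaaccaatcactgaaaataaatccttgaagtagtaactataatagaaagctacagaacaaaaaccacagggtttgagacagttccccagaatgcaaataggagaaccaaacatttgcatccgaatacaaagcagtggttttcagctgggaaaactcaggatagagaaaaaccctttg
Naip1: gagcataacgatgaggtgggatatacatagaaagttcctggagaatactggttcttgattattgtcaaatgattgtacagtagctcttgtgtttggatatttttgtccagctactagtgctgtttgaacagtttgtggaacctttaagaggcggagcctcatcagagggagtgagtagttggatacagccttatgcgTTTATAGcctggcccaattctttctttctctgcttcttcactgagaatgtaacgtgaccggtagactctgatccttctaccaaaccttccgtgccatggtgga
Naip5: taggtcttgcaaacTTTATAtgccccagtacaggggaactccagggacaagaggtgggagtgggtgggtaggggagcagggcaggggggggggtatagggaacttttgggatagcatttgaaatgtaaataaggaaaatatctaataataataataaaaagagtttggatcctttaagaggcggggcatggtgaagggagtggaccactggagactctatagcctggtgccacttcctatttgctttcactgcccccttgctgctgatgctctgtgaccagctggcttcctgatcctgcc
Nlrp6: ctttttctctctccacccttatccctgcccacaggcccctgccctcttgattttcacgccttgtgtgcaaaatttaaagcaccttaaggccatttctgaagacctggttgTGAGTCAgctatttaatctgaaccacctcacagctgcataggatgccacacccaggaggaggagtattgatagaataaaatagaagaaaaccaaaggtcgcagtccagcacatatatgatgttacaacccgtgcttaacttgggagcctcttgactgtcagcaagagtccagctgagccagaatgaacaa

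The TATA box core TATAAA was found in Il18, Naip1 and Naip5, 3 of the 8 promoters, and in 13.6% of all 32851 promoters. The match began 175, 53 and 236 bases before that start, on the opposite strand in each. TTTATNG, read by the intestinal factors CDX1 and CDX2, was found only in Naip1 (10.9% of all promoters), where it overlaps the TATAAA match. TGANTCA, the AP-1 motif, was found only in Nlrp6 (7.81%), 140 bases before its start. CAAAGTCCA, an HNF4 site (0.475%), TTCNNNGAA, the GAS element (8.30%), and the ISRE core (3.44%) had 0 matches in the 8 promoters. These matches describe the letters of the window and nothing about binding.

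Inflammasome genes were not spread evenly over the crypt epithelium. Il18, Gsdmd, Casp1, Nlrp6 and Naip1 had their highest level in enterocytes in both libraries. Naip6 was highest in goblet cells, and Pycard was high in stem, TA and enterocyte cells alike. In Paneth cells Il18 was at 0 UMIs and Casp1, Gsdmd, Naip1 and Naip6 at 6 or fewer. UMIs were summed per library and type and tested with edgeR's quasi-likelihood method over 11013 genes, with p values adjusted by Benjamini-Hochberg. All 9 genes passed the filter on low counts, and 9 of 9 differed among the 9 epithelial types, as did 77.3% of all genes tested. The authors had defined the types from these same cells, and the p values rest on 2 mice.

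**Figure D1:**
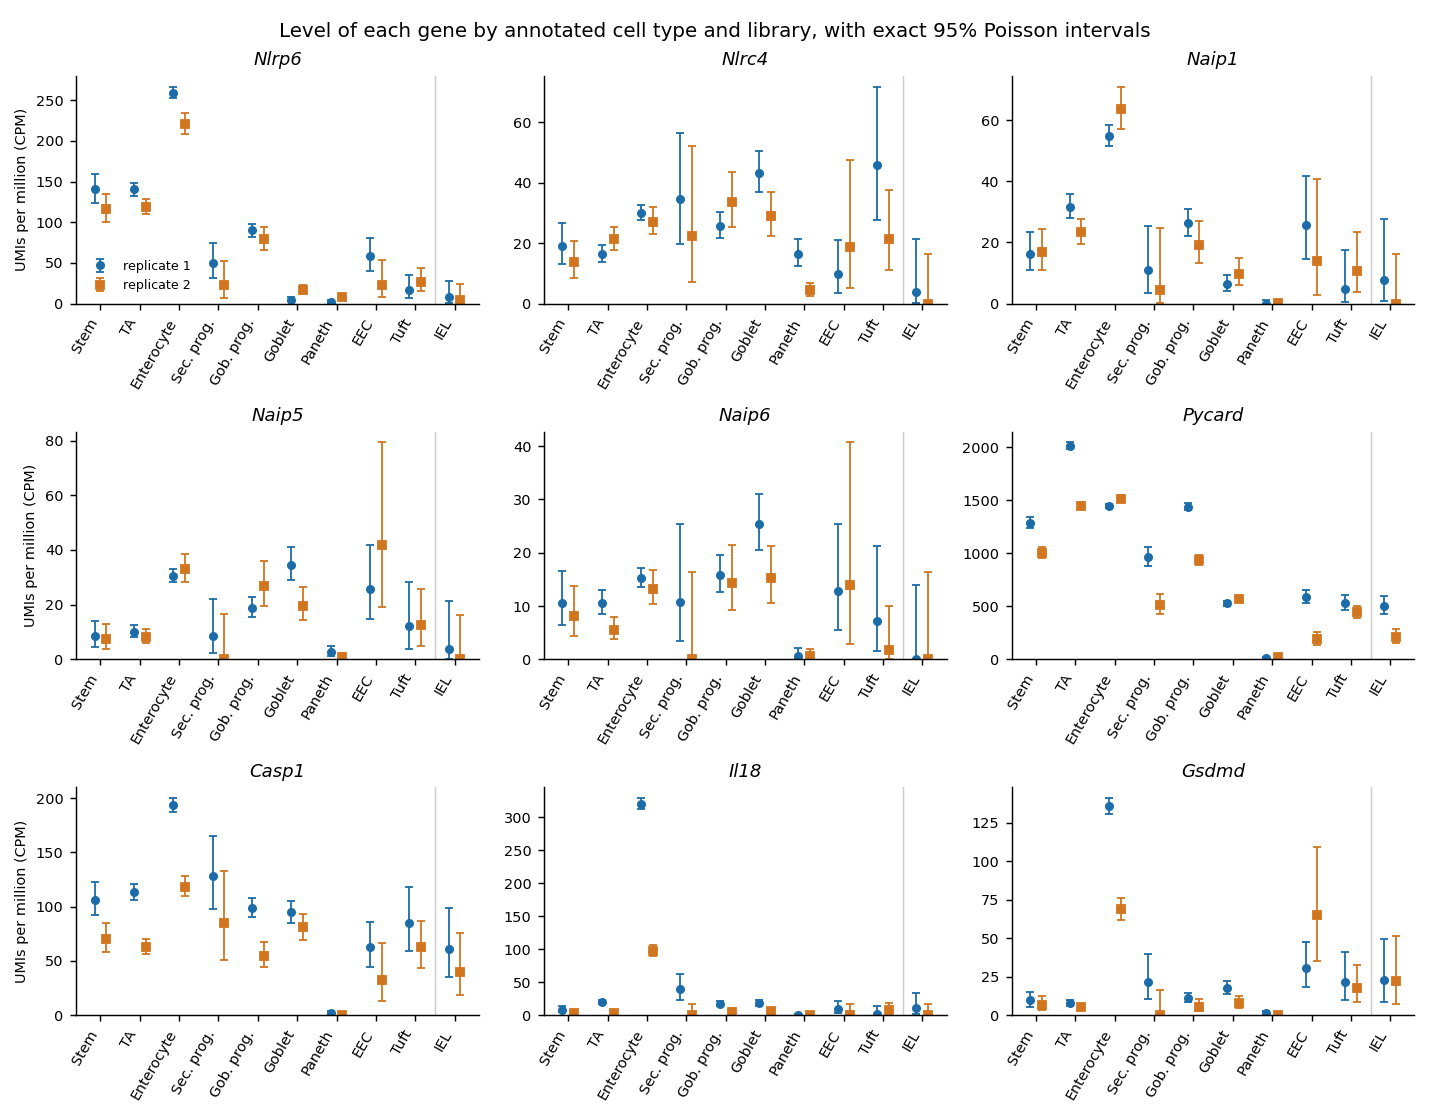
Level of the 9 genes in CPM (y axis) in the 10 annotated cell types (x axis), with 1 point per library and exact 95% Poisson intervals that cover counting error only. Il18 stands at 321 and 97.6 CPM in enterocytes and at 39.1 CPM or less in every other type. Sec. prog. and Gob. prog. are secretory and goblet progenitors, EEC enteroendocrine cells, and the grey line sets off the cells annotated IEL.

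Enterocytes were set against the other 8 epithelial types, each weighted alike. Of the 9 genes, 8 were higher in enterocytes and 0 lower, against 31.3% of all genes tested that were higher and 23.2% lower (54.5% in either direction). Their median log2 fold change was 1.74, and that of all genes was 0.03. Nlrc4 did not pass the test. Against stem cells, the other end of the absorptive lineage, 8 of 9 were higher, Pycard being the one that did not pass, where 27.8% of all genes were higher and 23.5% lower (51.3% in either direction). The median over the 9 genes was 1.19, beside 0.06 for all genes. The genes were chosen with results of these data known, so these counts describe them and are no independent evidence.

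**Figure D2:**
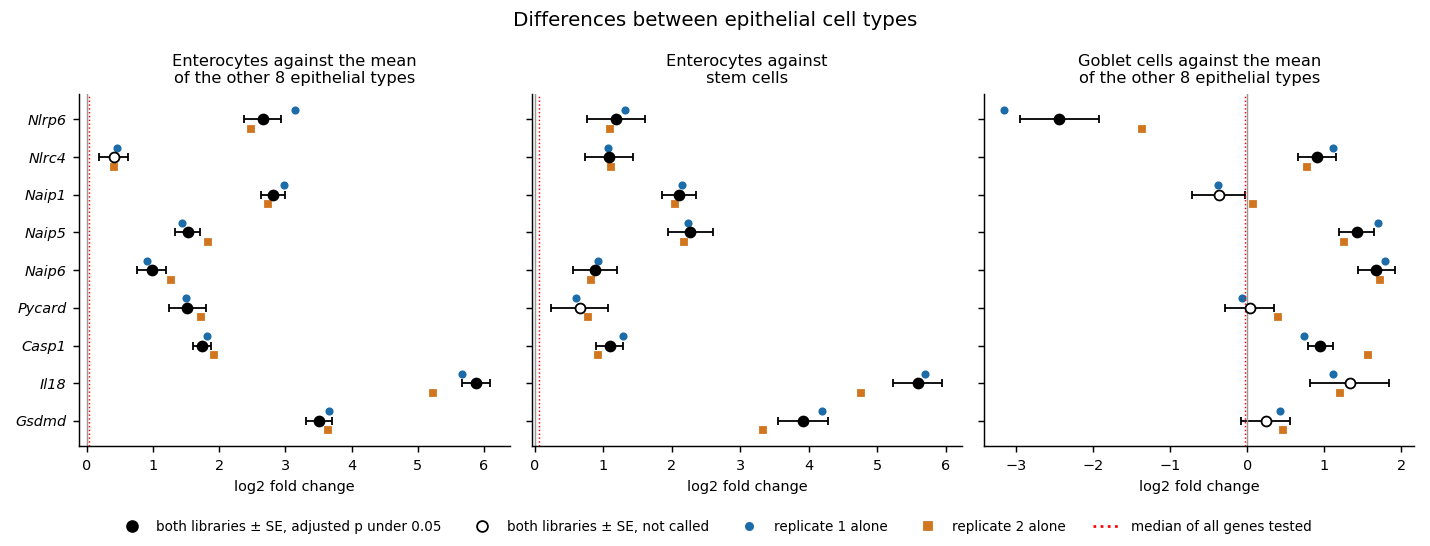
Log2 fold changes (x axis) of the 9 genes (rows) in 3 comparisons between epithelial types. Black points show both libraries with 1 standard error, filled where the adjusted p is under 0.05, coloured points show each library alone without a test, and the dotted line marks the median of all genes. Il18 and Gsdmd lie farthest to the right in both comparisons of enterocytes, and Nlrp6 lies at -2.44 in goblet cells.

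Among the sensors, Nlrp6 read 259 CPM (5022 UMIs) in enterocytes of replicate 1 and 221 CPM (1181 UMIs) in replicate 2. In stem cells it read 141 and 117 CPM, and in TA cells 140 and 119 CPM. Enterocytes were thus highest in both libraries, without overlap with any other type, and stem and TA cells did not differ from each other beyond their spread. The log2 fold change was 2.65 ± 0.29 (SE) against the other types (edgeR, adjusted p = 3.21e-05) and 1.19 ± 0.42 against stem cells (edgeR, adjusted p = 0.0412). The second call was lost with DESeq2, without the mouse term and with a stricter cell filter, where the adjusted p reached 0.114.

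Down the goblet lineage Nlrp6 went the other way. Goblet progenitors read 89.9 CPM (483 UMIs) and 79.2 CPM (132 UMIs), and goblet cells read 4.76 CPM (18 UMIs) and 17.0 CPM (38 UMIs). The libraries of one type lay far from those of the other, although goblet cells of replicate 1 were below those of replicate 2 (ratio 0.280, 95% interval of counting error 0.150 to 0.503). At 5000 UMIs per cell, 1.81% of 276 goblet cells and 7.25% of 138 held a UMI of Nlrp6, beside 68.5% and 61.5% of enterocytes, whereas in all kept cells 5.78% and 15.9% of goblet cells did. Median depths were 13649 and 15708.5 UMIs in goblet cells and 16975 and 13405 in enterocytes. Nlrp6 fell by 2.44 ± 0.51 on the log2 scale in goblet cells against the other types (edgeR, adjusted p = 0.00593). Without a test, it was at -3.16 in replicate 1 alone and -1.36 in replicate 2 alone. Low levels of Nlrp6 were not particular to goblet cells. Secretory progenitors read 49.9 and 22.3 CPM, enteroendocrine cells 58.0 and 23.2 CPM, tuft cells 16.9 and 26.8 CPM, and Paneth cells 1.99 and 8.25 CPM. The scale of TMM sets aside the genes that take most UMIs in Paneth cells. On it Paneth cells read 12.7 and 63.8 CPM, above goblet cells at 5.05 and 18.9 CPM, so their place depends on the scaling.

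The Naip genes, which choose the bacterial ligand, did not share a pattern. Naip1, the sensor of the secretion needle, read 54.8 and 63.8 CPM in enterocytes, 31.6 and 23.3 CPM in TA cells and 16.3 and 16.8 CPM in stem cells. This order held in both libraries with no overlap between the 3 types. Goblet cells held 6.35 and 9.84 CPM, and Paneth cells 0 and 1 UMI. The log2 fold change in enterocytes was 2.81 ± 0.18 against the other types (edgeR, adjusted p = 9.45e-15) and 2.11 ± 0.25 against stem cells (edgeR, adjusted p = 2.20e-08).

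Naip5, a sensor of flagellin, read 30.6 and 33.1 CPM in enterocytes, 34.6 and 19.7 CPM in goblet cells and 25.8 and 41.8 CPM in enteroendocrine cells. The last rest on 16 and 9 UMIs. These 3 types overlapped, and all lay above stem cells (8.41 and 7.48 CPM) and TA cells (10.2 and 8.22 CPM). In enterocytes the log2 fold change was 1.52 ± 0.19 against the other types and 2.27 ± 0.33 against stem cells (edgeR, adjusted p = 6.77e-08 and 1.13e-06), the latter at 1.44 with thinned cells. Naip6, the other flagellin sensor of the set, read 25.4 and 15.2 CPM in goblet cells and 15.2 and 13.3 CPM in enterocytes, ahead in each library but with ranges that met at 15.2. Its log2 fold change in enterocytes was 0.98 ± 0.22 against the other types (edgeR, adjusted p = 3.15e-04) and 0.88 ± 0.32 against stem cells (edgeR, adjusted p = 0.0210). The latter was lost with DESeq2, with thinned cells and without the mouse term, at an adjusted p of up to 0.203.

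Nlrc4, the partner that Naip proteins recruit, read 43.4 CPM (164 UMIs) and 29.1 CPM (65 UMIs) in goblet cells and 30.1 CPM (583 UMIs) and 27.1 CPM (145 UMIs) in enterocytes. Tuft cells read 45.9 CPM (19 UMIs) and 21.4 CPM (12 UMIs). Goblet progenitors read 25.7 and 33.6 CPM, and secretory progenitors 34.7 CPM (16 UMIs) and 22.3 CPM (5 UMIs). These 5 types overlapped, and stem cells were below them at 19.1 and 13.7 CPM. Enterocytes differed from the mean of the other types by 0.40 ± 0.22 on the log2 scale (edgeR, adjusted p = 0.138) and from stem cells by 1.09 ± 0.35 (edgeR, adjusted p = 0.0146). The second call was lost without the mouse term (edgeR, adjusted p = 0.073). Without Paneth cells the first difference reached 0.60 (edgeR, adjusted p = 0.00555). In Paneth cells Nlrc4 read 16.5 CPM (58 UMIs) and 4.35 CPM (19 UMIs), and on the scale of TMM, which sets aside the genes that take most UMIs there, 105 and 33.7 CPM. Its place in the order of types thus depends on the scaling.

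Goblet cells were compared with the mean of the other 8 epithelial types in the same fit. Casp1, Nlrc4, Naip5 and Naip6 were higher there and Nlrp6 lower, 5 of 9 genes, beside 17.8% of all genes tested that were higher and 11.4% lower (29.2% in either direction). The log2 fold change was 1.67 ± 0.24 for Naip6, 1.42 ± 0.23 for Naip5 and 0.90 ± 0.25 for Nlrc4 (edgeR, adjusted p = 1.47e-06, 9.78e-06 and 0.00826). For Casp1 it was 0.95 ± 0.16 (edgeR, adjusted p = 1.78e-05), with 1.56 in replicate 2 alone, 1.86 with thinned cells and 0.55 without Paneth cells. That of Nlrc4 was 1.38 with thinned cells. Without the mouse term the calls of Casp1 and Nlrc4 were lost, at adjusted p of 0.0713 and 0.0646. Il18 (1.33 ± 0.51, edgeR, adjusted p = 0.0533), Gsdmd (0.24), Pycard (0.03) and Naip1 (-0.37) did not pass.

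Pycard, the adaptor, read 2016 and 1451 CPM in TA cells, 1448 and 1516 CPM in enterocytes, and 1288 and 1008 CPM in stem cells. TA cells and enterocytes overlapped, and their order differed between the libraries. Goblet progenitors read 1439 and 941 CPM and goblet cells 529 and 570 CPM, the latter below the former in both libraries. Paneth cells held 47 and 107 UMIs, 13.4 and 24.5 CPM. Against the other types the log2 fold change in enterocytes was 1.52 ± 0.28 (edgeR, adjusted p = 0.00133), and against stem cells 0.66 ± 0.42 (edgeR, adjusted p = 0.229).

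Casp1, the protease, read 194 CPM (3750 UMIs) and 119 CPM (634 UMIs) in enterocytes. Stem cells read 107 and 70.4 CPM, TA cells 114 and 63.0 CPM, and goblet cells 94.6 and 80.9 CPM, which overlap with one another. Within each library enterocytes were highest, but the 128 CPM of secretory progenitors in replicate 1 (84.8 in replicate 2) lay inside the range of the enterocytes. Paneth cells held 6 and 0 UMIs, where 0 allows up to 0.687 CPM. The log2 fold change in enterocytes was 1.74 ± 0.14 against the other types (edgeR, adjusted p = 2.16e-12) and 1.09 ± 0.19 against stem cells (edgeR, adjusted p = 2.07e-05). The latter call was lost without the mouse term (adjusted p = 0.0735).

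Il18, the cytokine, was the gene most restricted to enterocytes of the 9. Enterocytes read 321 CPM (6218 UMIs) in replicate 1 and 97.6 CPM (522 UMIs) in replicate 2. They held 94.4% and 91.7% of the epithelial UMIs of Il18, while holding 44.3% and 24.4% of all epithelial UMIs. TA cells read 19.9 and 2.62 CPM, goblet progenitors 17.3 and 5.40 CPM, goblet cells 18.2 and 6.26 CPM and stem cells 7.85 and 3.12 CPM. These 4 types overlapped one another, and none came near the enterocytes. Secretory progenitors held 18 UMIs (39.1 CPM) and 0 UMIs, enteroendocrine cells 6 and 0, and tuft cells 1 and 4. Paneth cells held 0 in both, which allows up to 0.854 and 0.687 CPM. The log2 fold change in enterocytes was 5.88 ± 0.21 against the other types (edgeR, adjusted p = 9.74e-18), 4.86 without Paneth cells, and 5.59 ± 0.36 against stem cells (edgeR, adjusted p = 4.60e-12).

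Counted per cell after thinning to 5000 UMIs, 66.7% of 930 enterocytes of replicate 1 (exact 95% interval 63.5 to 69.7) and 32.5% of 382 of replicate 2 (27.8 to 37.4) held a UMI of Il18. Without thinning the shares were 87.0% and 53.1%. Goblet cells stood at 6.88% and 4.35% after thinning, and stem cells at 1.47% and 3.42%. Paneth cells, at median depths of 44683.5 and 80820 UMIs, stood at 0 of 78 and 0 of 54. The low level of Il18 outside enterocytes was set beside 6 enterocyte markers (Alpi, Apoa1, Apoa4, Fabp1, Rbp2 and Sis). In goblet cells of replicate 1 these markers were at 0.0598% to 0.940% of their own enterocyte level, and Il18 at 5.68%. In goblet cells of replicate 2 they were at 0% to 3.34%, and Il18 at 6.41%. In TA cells the markers ranged from 0.865% to 12.3% and from 0.0380% to 8.05%, and Il18 at 6.20% and 2.69% lay inside that range, as it did at 2.44% in stem cells of replicate 1 (0% to 3.32%) but not at 3.19% in those of replicate 2 (0% to 1.30%). How much free RNA adds to these low levels was not tested.

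Gsdmd, the pore former, read 136 CPM (2630 UMIs) and 68.8 CPM (368 UMIs) in enterocytes. Enteroendocrine cells read 30.6 CPM (19 UMIs) and 65.0 CPM (14 UMIs), so that in replicate 2 they were within counting error of enterocytes. All other epithelial types lay at 21.8 CPM or less, below both. The log2 fold change in enterocytes was 3.51 ± 0.19 against the other types (edgeR, adjusted p = 7.51e-13) and 3.91 ± 0.36 against stem cells (edgeR, adjusted p = 9.85e-09). Enterocytes held 91.3% and 80.3% of the epithelial UMIs of Gsdmd. Among the sensors this share was 71.4% and 51.8% for Nlrp6, and 50.4% and 32.2% for Nlrc4.

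The authors split enterocytes into 5 clusters, which were ordered here by Apoa4, a gene of fat transport that rises as enterocytes leave the crypt. In the order 2, 6, 9, 3, 1 Apoa4 went from 25.1 to 7011 CPM in replicate 1 and from 11.8 to 5387 CPM in replicate 2, the same order in both. Il18 read 81.7, 340, 276, 493 and 315 CPM along it in replicate 1, and 13.8, 74.2, 121, 179 and 174 CPM in replicate 2. It was lowest in cluster 2 and highest in cluster 3 in both libraries, although clusters 3 and 1 of replicate 2 overlapped within counting error. Gsdmd read 18, 47.6, 129, 157 and 259 CPM, and 9.17, 22.2, 79.0, 65.6 and 229 CPM, and was lowest in cluster 2 and highest in cluster 1 in both.

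Pycard ran the other way, at 2527 CPM in cluster 2 and 437 CPM in cluster 1 of replicate 1, and 1930 and 419 CPM in replicate 2. Naip1 was highest in cluster 9 (80.6 and 94.8 CPM) and lowest in cluster 1 (23.6 and 43.1 CPM). Nlrp6 varied less, between 195 and 297 CPM and between 161 and 288 CPM. Adaptor and substrates thus had their highest levels in different enterocyte clusters, with Pycard falling where Gsdmd was highest. The clusters were made from these same cells, so this is a description without a test. Median mitochondrial shares rose along the order too, at 10.2%, 11.6%, 12.3%, 13.7% and 15.1% in replicate 1 and 5.89%, 7.14%, 7.67%, 8.78% and 9.65% in replicate 2, and their part in these levels was not tested. Cluster 9 was also the one with the most Reg3b, the lectin that binds bacteria, at 36478 and 6542 CPM.

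**Figure D3:**
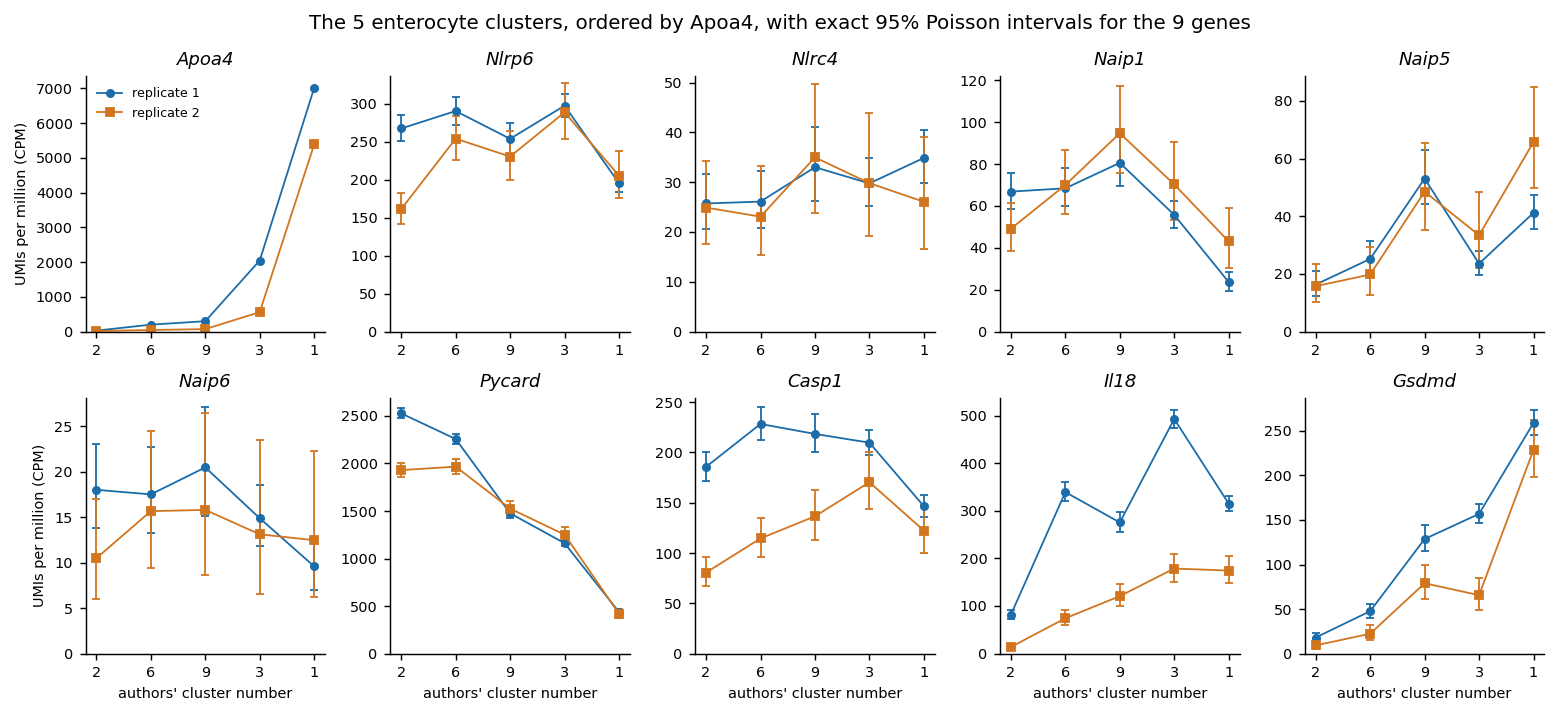
Level of Apoa4 and of the 9 genes in CPM (y axes) in the 5 enterocyte clusters of the authors, ordered by Apoa4 (x axes), with 1 line per library and exact 95% Poisson intervals for the 9 genes. Gsdmd ends at 259 and 229 CPM in cluster 1, where Pycard is down to 437 and 419 CPM.

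With 1 library per mouse the mice were compared without a test, as the ratio of CPM in each type. A gene was listed when the ratio reached 2 in the same direction in at least 5 of the 9 epithelial types. Il18 was the only one of the 9, higher in replicate 1 in 6 types, and 3.39% of 10131 genes met the rule in that direction and 2.26% in the other. The 95% intervals here cover counting error only. Its ratio was 3.29 in enterocytes (3.01 to 3.60), 7.59 in TA cells (4.47 to 13.9), 3.21 in goblet progenitors (1.62 to 7.23) and 2.91 in goblet cells (1.63 to 5.61). It was 2.52 in stem cells (0.857 to 8.93), at least 2.92 in secretory progenitors and in the other direction in tuft cells, on 1 and 4 UMIs. With cells thinned to 5000 UMIs none of the 9 met the rule, while the enterocyte value was 1.65 on the log2 scale beside 1.72. After thinning, 10.0% and 1.24% of TA cells in replicates 1 and 2 held a UMI of Il18. The shares were 8.02% and 4.76% in goblet progenitors and 6.88% and 4.35% in goblet cells. In stem cells the order turned, at 1.47% (0.179 to 5.21) and 3.42% (0.939 to 8.52), with overlapping intervals. Types of the same library are not separate observations, and the part of free RNA from enterocytes in the other types was not tested.

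Within the enterocyte clusters, a comparison added after the data were seen, the ratio of Il18 was 5.94, 4.58, 2.28, 2.76 and 1.81 in the order of Apoa4. It was above 1 in each and smallest in the cluster with most Apoa4. Median mitochondrial shares also differed between the mice, at 13.2% in enterocytes of replicate 1 and 7.59% in replicate 2. With cells of at most 10% mitochondrial reads and at least 2000 genes, which left 148 of 931 and 307 of 382 enterocytes, the log2 ratio was 1.17. The part of cell quality in the difference was not tested.

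Gsdmd in enterocytes had a ratio of 1.97 (1.77 to 2.21), or 0.98 on the log2 scale, which turned to -0.16 with the stricter cell filter. In the same added comparison within clusters, its ratio was 1.96, 2.14, 1.63, 2.39 and 1.13 in the order of Apoa4. Cluster 1, where Gsdmd was highest, held 30.3% of enterocytes in replicate 1 and 18.8% in replicate 2. The part of this make-up in the ratio was not tested. In enterocytes alone 4.98% of 10457 genes were at least 2-fold higher in replicate 1 and 8.47% in replicate 2, and Il18 was the one of the 9 past that fold. Casp1 was higher in replicate 1 in each of the 9 epithelial types, as were 16.6% of 6698 genes, with a ratio of 1.63 (1.5 to 1.78) in enterocytes and 1.80 (1.60 to 2.04) in TA cells. The interval included 1 in goblet cells (0.976 to 1.41), secretory progenitors (0.888 to 2.68), enteroendocrine cells (0.855 to 5.12) and tuft cells (0.823 to 2.23). The value in Paneth cells was a bound on 6 and 0 UMIs. Nlrp6 (1.17), Naip6 (1.15), Nlrc4 (1.11), Pycard (0.955), Naip5 (0.925) and Naip1 (0.860) were closer to 1 in enterocytes.

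**Figure D4:**
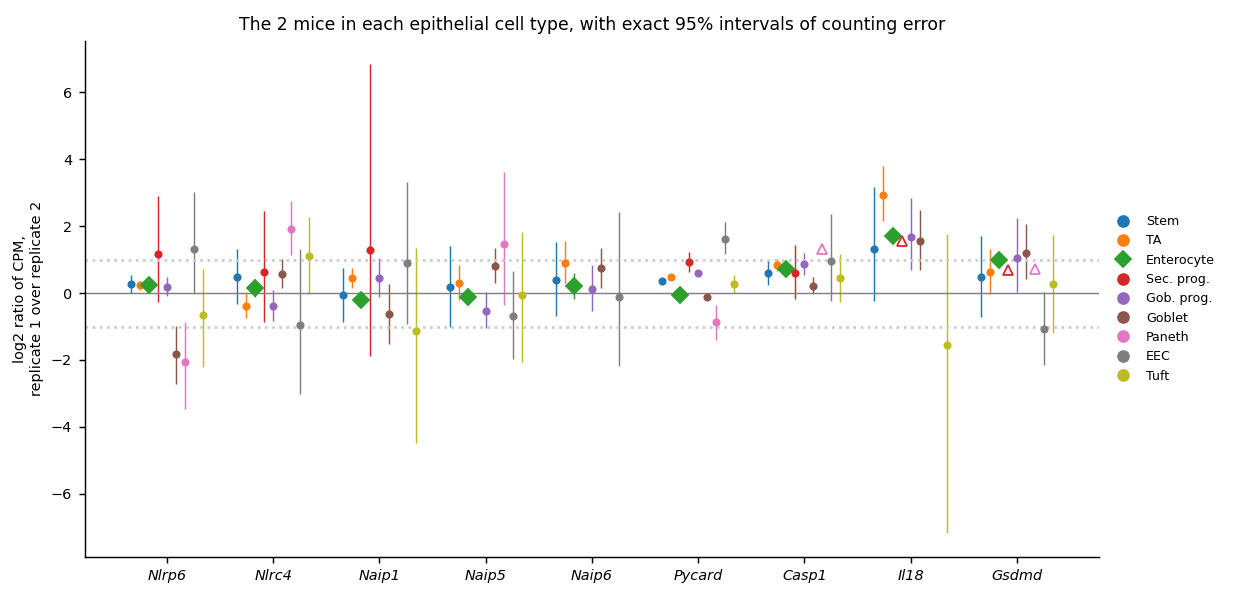
Log2 ratio of CPM, replicate 1 over replicate 2 (y axis), for each gene (x axis) and epithelial type (colours), with exact 95% intervals of counting error. Enterocytes are diamonds, open triangles are bounds against 0 UMIs, dotted lines mark 2-fold, and types with too few UMIs are left out. Il18 stands at 1.72 in enterocytes and Casp1 lies above 0 in every type, in Paneth cells as a bound.

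In the cells annotated IEL the sensors among the 9 genes had few UMIs or none, out of 262594 and 225423 UMIs in all. Nlrp6 held 2 and 1 UMIs, Naip1 2 and 0, Nlrc4 and Naip5 1 and 0, and Naip6 0 and 0. A count of 0 allows up to 11.4 CPM in replicate 1 and 13.3 CPM in replicate 2. Compared with the mean of the 9 epithelial types over 11402 genes, Nlrp6, Nlrc4, Naip5 and Naip6 were lower and 0 of the 9 genes higher (edgeR, adjusted p from 0.0115 for Nlrc4 to 0.0497 for Nlrp6), beside 13.6% of all genes that were lower and 16.4% higher (30.0% in either direction). Naip1 was not called (edgeR, adjusted p = 0.147). The fitted folds of the 4 called genes depend on the prior count and are not given. Naip5 did not pass with DESeq2 (adjusted p = 0.107), and all 4 calls were lost with cells thinned to 5000 UMIs and with the stricter cell filter. The 1 gene called in each of these was Pycard (edgeR, adjusted p = 5.95e-04 and 0.0339). Pycard was present, at 506 CPM (133 UMIs) and 213 CPM (48 UMIs), and Casp1 at 60.9 and 39.9 CPM, the latter within the range of the epithelial types. In the lymphocyte cluster 11 Casp1 read 67.7 and 69.9 CPM, in the mixed cluster 14 it read 49.9 and 26.0 CPM. Il18 held 3 and 0 UMIs. Gsdmd read 22.8 CPM (6 UMIs) and 22.2 CPM (5 UMIs) and was not called (edgeR, adjusted p = 0.601).

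The genes whose levels over the 9 epithelial types were most like those of Il18 were Gsta1 (lower Pearson r of both libraries 0.966), Reg3b (0.945), Dgat1 (0.938), Creb3l3 (0.931) and Hadhb (0.929), out of 11012 genes. These are correlations of TMM-scaled log2 CPM over 9 types within a library that share depth and cells, given as a description. Gsta1 read 1240 and 640 CPM in enterocytes and 6.73 and 0.623 CPM in stem cells. Of the other inflammasome genes Naip1 was nearest, at rank 61 (0.836), Pycard was at rank 301 (0.738) and Gsdmd at rank 733 (0.619). Nlrc4 was at rank 6877, with a lower r of -0.28. Sharing enterocytes as the highest type did not place Gsdmd, Casp1 (rank 1039) or Nlrp6 (rank 1174) among the nearest.

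Of a list of 48 further genes of inflammasomes, pyroptosis and the IL-1 family, 47 were in the matrices and 23 passed the filter. In enterocytes against the other types 14 were higher and 3 lower (Ninj1, Nek7 and Dhx15), where 31.3% of all genes tested were higher and 23.2% lower. Their median log2 fold change was 0.87, beside 0.03 for all genes. Among those with the largest change were Gsdmc2 (4.32), Gsdmc3 (3.68) and Gsdmc4 (3.33), paralogues of gasdermin D that are near copies of each other and whose reads may be split between them, the protease inhibitor Serpinb6a (2.12) and Casp4 (1.83), the mouse caspase-11 that senses lipopolysaccharide. Casp4 read 34.5 and 20.6 CPM in enterocytes and 23.0 and 16.2 CPM in stem cells. Naip2, next to Naip5 on chromosome 13, read 28.3 and 24.1 CPM in enterocytes, 40.5 and 20.1 CPM in goblet cells and 20.2 and 9.97 CPM in stem cells. Against the other types its log2 fold change was 0.58 in enterocytes and 0.92 in goblet cells (edgeR, adjusted p = 0.00383 and 2.42e-04).

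No UMI was seen of some inflammasome genes known from immune cells, which allows up to 3 counts in each library. Nlrp3, Nlrp1a, Nlrp12 and Il1a had 0 UMIs in the epithelial cells of both libraries and in the cells annotated IEL. Other sensors of the list were seen. Aim2 held 15 and 4 UMIs (57.1 and 17.7 CPM) in the cells annotated IEL and 63 and 27 in epithelial cells. Nlrp1b held 1 and 0 UMIs in the former and 30 and 5 in the latter, and Mefv 1 and 3 in the former and 0 in the latter. Il1b held 2 and 1 UMIs in all epithelial cells, and 12 and 45 in the cells annotated IEL, all of them in cluster 14. The 10 macrophage and dendritic cell markers summed to 9.45 and 8.04 CPM in enterocytes, with 5 and 6 of them at 0.

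Some ligands and receptors of the cytokine side were sparse. Il18r1, part of the IL-18 receptor, held 23 and 4 epithelial UMIs and Il18bp, which binds free IL-18, 76 and 19. Il22ra1, part of the receptor of IL-22, held 49 and 10, and Nlrp9b, an epithelial sensor of viral RNA, 98 and 22. None of them passed the filter on low counts. Il10rb and Il1rap of the same list did, with 1884 and 689 and with 130 and 76 epithelial UMIs. In enterocytes against the other types Il10rb was higher (log2 fold change 0.87, edgeR, adjusted p = 8.81e-06). Il1rap was not called (-0.86, edgeR, adjusted p = 0.0809). Of the 12 antimicrobial genes listed, 8 were tested and 7 were higher in enterocytes and 0 lower, again beside 31.3% and 23.2% of all genes tested. Between the mice Reg3a, Reg3b and Reg3g met the rule toward replicate 1, as Il18 did, and Duox2 toward replicate 2. Reg3b read 13360 CPM in enterocytes of replicate 1 and 2524 CPM in replicate 2, a ratio of 5.29, and Reg3g 4553 and 2802 CPM, a ratio of 1.62. Reg3a was nearly level in enterocytes, at 1127 and 1088 CPM, a ratio of 1.04.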

How the data were processed

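Jejunal crypts of 2 375KO mice were profiled, 1 library each. The authors aligned reads to mm10 with Cell Ranger 3.0.1 and deposited a matrix of UMI counts per library, which is the unit used here. They removed doublets with scDblFinder, filtered cells and annotated clusters in Seurat 3.2.1 (versions from the submitters' processing notes). SoupX is named by the study for free RNA, but not for which file. The deposited annotation also gives the mitochondrial percent and cluster per cell. It was joined by cell order to the count table of the whole study, and 3275 of 3275 cells had matching UMI totals. The 2937 cell columns of another series in that table, the sctransform table and the doublet table were not used.

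UMI counts were summed per library and annotated type. The 18 epithelial sums (20 with IEL) were filtered with filterByExpr, scaled with TMM and fitted in edgeR 4.0.16 (quasi-likelihood, robust) with type and mouse as terms, with 8 and 9 residual degrees of freedom. Two-sided p values were adjusted by Benjamini-Hochberg with a threshold of 0.05. The SE is the log2 fold change over the square root of F, and values of single libraries used a prior count of 2 without a test. The steps were tested on simulated data. Poisson, binomial and conditional ratio intervals are exact, at 95%, and cover counting error only, as does the limit of 3 counts that a count of 0 allows. Sums of fewer than 10 cells were left out.

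Alternatives were DESeq2 1.42.0, no filter on low counts, no mouse term, a stricter cell filter, thinning to 5000 UMIs and leaving out Paneth cells or a replicate. The rule for named genes was all 9 members, at most 6 of the pathway list by size of change in enterocytes (some of them are not reported here), and the 5 genes most like Il18 by the lower correlation. Other genes of the lists that the text names (Naip2, Aim2, Il10rb, Il1rap, genes at 0 or with few UMIs, Reg3a, Reg3b and Reg3g) were picked after their values were seen. Members and lists were chosen with earlier results of these data known. Positions come from GENCODE M21 (mm10) and promoters from RefSeq.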

Additional observations from a re-analysis of the deposited data

How the results depend on the processing

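Of 34 alternative counts of the 9 genes, 27 stayed within 1.5 times the value reported and 7 moved. Without the mouse as a replicate block, 4 genes in place of 8 differed between enterocytes and stem cells, and 3 in place of 5 between goblet cells and the other types. In the cells annotated IEL, 1 gene was called with the stricter cell filter, 1 with thinned cells and 7 without Paneth cells, in place of 4. The 1 gene was Pycard in both, and the 4 calls reported were lost. The stricter filter left 6 such cells in replicate 1, under the minimum of 10, so that side rested on 1 library that is assumed to vary like the other sums. Between the mice, 0 of the 9 met the rule with thinned cells and 3 at a ratio of 1.5, in place of 1, the latter by construction of a lower limit. The count in enterocytes against the other types stayed at 8 or 9. Of 216 alternative log2 fold changes with a test, 183 kept direction and side of the threshold, 19 lost and 13 gained the call, and 1 turned, that of Pycard in goblet cells without Paneth cells, at -0.18. Where not stated, the cause was not tested. Leaving out a replicate leaves no residual degrees of freedom, so it gave values without calls. In enterocytes these ranged from 5.23 to 5.66 for Il18, 3.64 to 3.65 for Gsdmd and 2.47 to 3.14 for Nlrp6. Small types limit the depth most, since 3 UMIs stand for 13.4 CPM in secretory progenitors of replicate 2.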

Other observations

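Of the gasdermin C genes, Gsdmc2 read 13.4 and 30.1 CPM and Gsdmc3 3.67 and 11.4 CPM in enterocytes, with ratios of 0.444 and 0.321, in the opposite direction to Gsdmd. Gsdmc4 read 50.0 and 56.5 CPM. These genes are near copies, and the difference was not tested.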
